A study of Mus musculus with 4 samples.

Results

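The genes described here are 10 genes of the circadian clock in the mouse: Arntl, Clock, Npas2, Nr1d1, Nr1d2, Dbp, Per1, Per2, Per3 and Ciart. They were taken by gene symbol from the 31053 genes listed for 4 single-cell RNA libraries of mouse kidney, and each of the 10 was found once. The value followed is the number of UMIs of a gene (unique molecular identifiers, each marking 1 captured RNA molecule) summed over all cells of a class in a library, scaled to the total UMIs of that class and library and given per 1000000 UMIs (CPM). The mice were C57BL/6J animals of 10 weeks with the genotype given as C57BL/6. The groups were FGF23_0h, a baseline at a dose of 0 µg per mouse, and FGF23_1h, FGF23_4h and FGF23_12h, in which kidneys were taken 1, 4 or 12 h after 10 µg per mouse of recombinant human FGF23 into the peritoneum. FGF23 is a hormone made in bone that makes the kidney excrete phosphate. Each group is 1 library, and in each library kidneys of male and female mice were digested together. The name of the deposited matrix of the 0 h library describes saline at 1 h, and the labels do not settle whether its mice were injected. With 1 library per group no test across samples was possible, every 95% interval below covers counting error only, and time after injection, time of day of collection (not given in the sources used here) and preparation cannot be told apart.

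The 4 libraries held 139675666 to 158838728 UMIs and gave 8758 to 10131 cells each after filtering and removal of doublets, and pairs of libraries shared 36 to 57 cell barcodes. Of 54 clusters, 16 stayed unnamed and the others were named from marker genes. The names carry "-like" because they were rebuilt here and may differ from names given by the study. At least 100 cells in every library were found for 5 classes: PT-like (proximal tubule, 6165 to 7113 cells per library), DCT/CNT-like (convoluted part of the distal tubule with the connecting tubule, 484 to 654), TAL-like (thick ascending limb, 337 to 375), endothelial-like (318 to 683) and T/NK-like (230 to 396). Collecting duct classes were smaller, with 57 to 118 PC-like (principal) and 79 to 237 IC-like (intercalated) cells. The markers fit these names: Slc34a1, the main phosphate transporter of the proximal tubule, stood at 3608 CPM in PT-like cells and 62.7 in other classes, and Slc12a3, the thiazide-sensitive sodium chloride transporter, at 8453 CPM in DCT/CNT-like cells and 9.01 in others. The summed PT markers in other classes lay between 0.598% and 5.31% of their level in PT-like cells.

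The circadian clock is a feedback loop of transcription that runs in nearly every cell. The proteins of Arntl (BMAL1) and Clock, or of Npas2 in place of Clock, bind E-box motifs and switch on the genes of their own repressors, the Per and Cry genes, together with Nr1d1 and Nr1d2 (REV-ERB alpha and beta), Dbp and Ciart. The REV-ERB proteins repress Arntl and Npas2 through ROR elements, Dbp and its relatives act through D-boxes, and Ciart (CHRONO) represses BMAL1 with CLOCK. In the kidney this loop times transport of sodium, water and other solutes, and members on the BMAL1 side normally peak when those on the Dbp and REV-ERB side are low.

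The promoters of the members were searched for the 3 motifs of this loop, and the stretches that hold matches are shown because the values below turn on members of opposite sides of the loop. RefSeq promoter windows on GRCm38.p6, from 250 bases before to 50 after a start, were found for 9 of the 10 members, 13 windows in all. No window was found for Per2. The letters searched on both strands were CACGTG (E-box), TTATGNAA (D-box) and those of the ROR element (GGTCA behind a flank rich in A), which do not overlap one another in these windows. Matches are in capitals, and each sequence reads 5′ to 3′ on the strand of the gene.
Ciart, chr3:95882229-95882384, minus strand, 3 E-boxes starting 116, 58 and 44 bases before the start: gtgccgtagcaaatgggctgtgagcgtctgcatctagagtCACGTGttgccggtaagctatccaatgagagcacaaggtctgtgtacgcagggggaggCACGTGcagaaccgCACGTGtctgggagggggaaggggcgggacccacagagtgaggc
Per1, chr11:69098743-69098948, plus strand, 1 E-box 166 and 1 D-box 24 bases before the start: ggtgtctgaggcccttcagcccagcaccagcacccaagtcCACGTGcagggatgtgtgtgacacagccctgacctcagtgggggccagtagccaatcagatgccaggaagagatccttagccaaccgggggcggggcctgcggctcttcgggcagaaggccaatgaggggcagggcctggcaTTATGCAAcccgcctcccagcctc
Per3, chr4:151044776-151044910, minus strand, 2 D-boxes 205 and 158 bases before the start: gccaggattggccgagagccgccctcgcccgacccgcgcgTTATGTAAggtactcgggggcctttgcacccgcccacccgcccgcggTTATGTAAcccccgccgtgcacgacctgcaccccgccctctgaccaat
Arntl, chr7:113207528-113207557, plus strand, 1 ROR element 27 bases after 1 of its 2 transcript starts: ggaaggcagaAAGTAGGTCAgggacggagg

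Over 32851 RefSeq windows of the same length, 7.15% held the E-box letters, 3.38% the D-box letters and 0.606% the ROR letters. The windows of Clock, Npas2, Nr1d1, Nr1d2 and Dbp held none of the 3. A match describes letters and not binding, and these windows are short.

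By GENCODE vM21 (GRCm38), in which 99.62% of the gene IDs of the files were found, the activators lie at chr7:113207465-113314126 (Arntl, plus strand), chr5:76209868-76304792 (Clock, minus) and chr1:39193731-39363236 (Npas2, plus). The REV-ERB genes lie at chr11:98767932-98775333 (Nr1d1, minus) and chr14:18204054-18239127 (Nr1d2, minus), and Dbp at chr7:45705088-45710203 (plus). The repressors lie at chr11:69095217-69109960 (Per1, plus), chr1:91415982-91459324 (Per2, minus), chr4:151003652-151044665 (Per3, minus) and chr3:95878503-95882251 (Ciart, minus). The end of Nr1d1 overlaps Thra on the other strand over 1075 bases, and the end of Dbp overlaps Sphk2 on the other strand over 737. Ciart is covered by the antisense gene C920021L13Rik, 2394 bases of Arntl by the antisense gene Gm45355, and Per3 lies wholly within Camta1 on the same strand. How the counting treated strand and shared reads is not given in the sources used here, so the counts of these 5 genes carry that uncertainty.

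At 0 h the members differed in where they were found. Arntl stood at 33.2 CPM in PC-like, 28.1 in endothelial-like and 22.4 in DCT/CNT-like cells, against 7.48 in TAL-like and 7.14 in PT-like cells, and the intervals of the highest 3 overlapped. Clock stood between 26.9 CPM in T/NK-like and 84.4 in endothelial-like cells, with 33.6 in PT-like cells, in every class but neutrophil-like cells (3.19). Npas2 stood at 4.21 CPM (3.79 to 4.67, 364 UMIs) in PT-like cells and 3.12 (0.64 to 9.11, 3 UMIs) in PC-like cells, with overlapping intervals. It was at 1.78 CPM (9 UMIs) in DCT/CNT-like and 0.34 (1 UMI) in TAL-like cells. In the 12 h library PC-like cells were above PT-like cells, at 8.07 CPM (3.48 to 15.9, 8 UMIs) against 2.25 (1.93 to 2.61). Over all 4 libraries endothelial-like cells had 0 UMIs of Npas2 in 4679590, which allows up to 0.641 CPM by counting error.

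The genes on the other side of the loop had other orders. Nr1d1 was at 50.9 CPM in PC-like and 17.0 in DCT/CNT-like cells, with endothelial-like (33.2), TAL-like (31.3), IC-like (26.6) and PT-like (24.4) cells between them, and the intervals of neighbours in that order overlapped except those of PT-like and DCT/CNT-like cells. Nr1d2 was highest in TAL-like cells (44.5 CPM, 37.2 to 52.8), above PT-like cells (32.1, 31.0 to 33.4). Dbp, a transcription factor and a direct output of the clock, was at 24.1 CPM in PT-like, 22.2 in IC-like and 22.1 in TAL-like cells, which did not differ beyond their intervals, and at 5.94 (4.01 to 8.48) in DCT/CNT-like cells. So the DCT/CNT-like cells combined a high Arntl level with a low Dbp level.

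Among the repressors, Per1 stood apart in neutrophil-like cells, at 121 CPM (95.5 to 152), where Arntl had 0 UMIs and Clock 2. Endothelial-like cells followed at 56.3 CPM, and PT-like cells were the lowest class at 6.30. Per2 was at 34.3 CPM (23.6 to 48.1) in PC-like cells and at 6.25 in PT-like cells, the next in order, with intervals that did not overlap. Per3 was at 23.1 CPM in TAL-like, 21.7 in endothelial-like and 17.2 in PT-like cells, with overlapping intervals. Ciart was scarce, with 146 UMIs in PT-like cells (1.69 CPM, 1.43 to 1.99) and at most 5 UMIs in any other class. In the shallow T/NK-like cells 5 UMIs gave 5.61 CPM (1.82 to 13.1), and in B-cell-like cells 2 UMIs gave 4.31 (0.52 to 15.6). These intervals overlapped that of PT-like cells, so its order over the classes was not resolved.

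**Figure D1:**
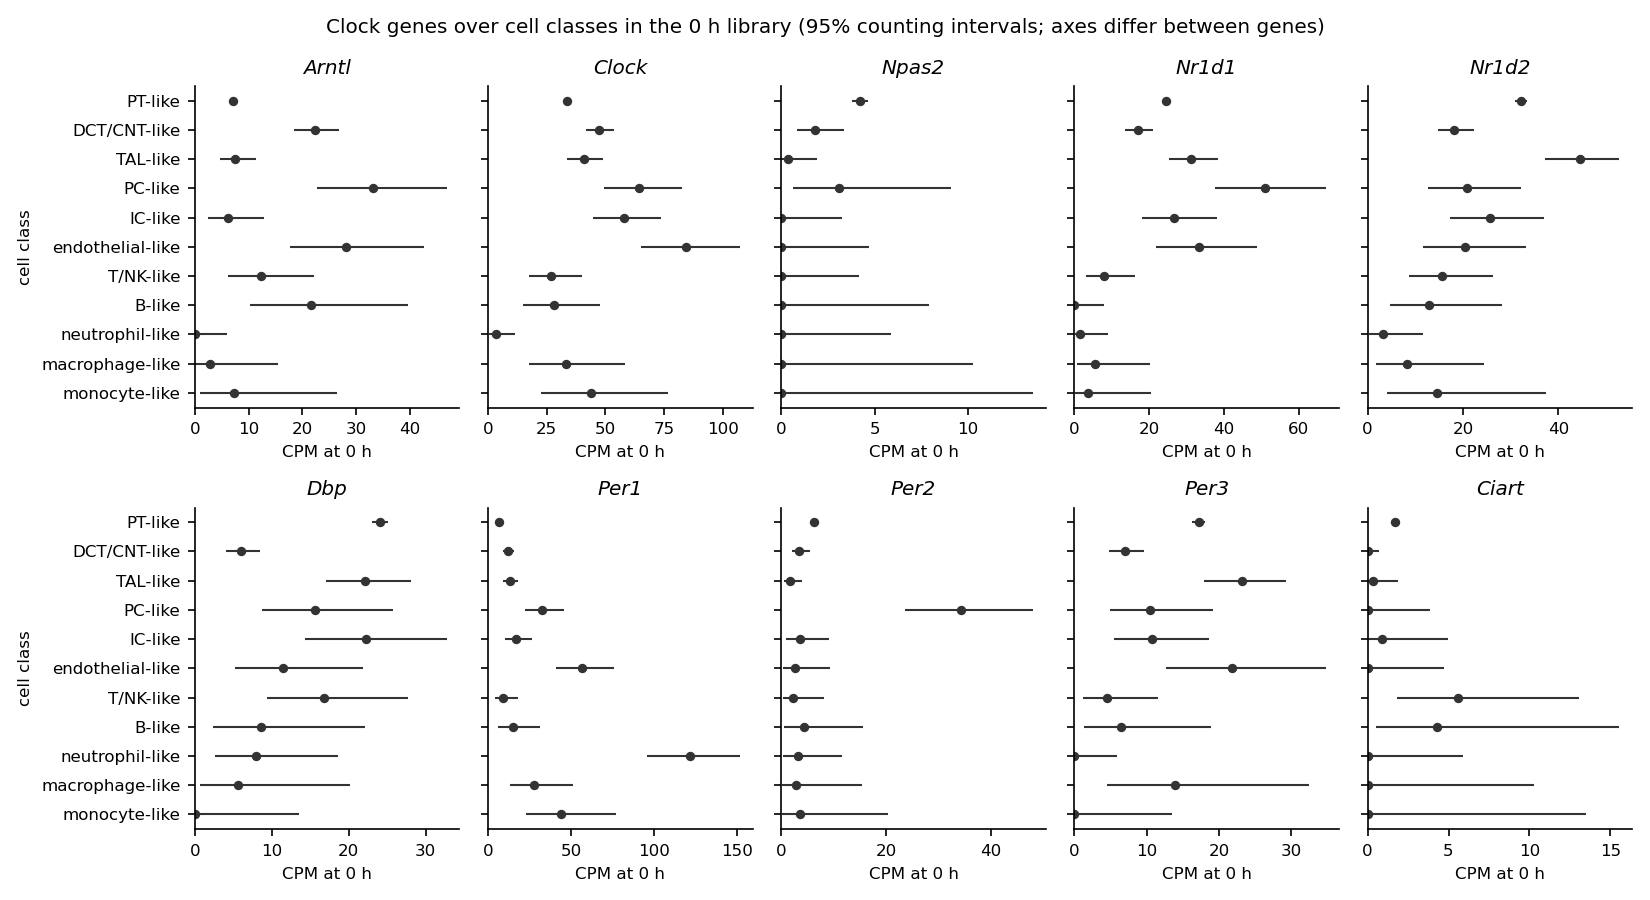
Level of each clock gene in the 0 h library (x axis, CPM, a separate linear scale for each gene) over the 11 named cell classes (y axis); points are summed UMIs and bars 95% counting intervals. Per1 is highest in neutrophil-like cells at 121 CPM and Per2 in PC-like cells at 34.3. Npas2 is highest in PT-like cells at 4.21, with an interval that overlaps that of PC-like cells.

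In PT-like cells the activators Arntl and Npas2 were highest at 4 h, and Clock at 0 h. In the order 0, 1, 4 and 12 h, Arntl stood at 7.14, 8.66, 16.6 and 3.70 CPM, and Npas2 at 4.21, 5.19, 8.94 and 2.25. Clock stood at 33.6, 31.3, 31.9 and 23.8. Arntl and Npas2 thus shared a shape with its top at 4 h and its low point at 12 h, with log2 ratios to 0 h at 4 h of 1.21 (1.08 to 1.35) and 1.08 (0.91 to 1.27), whereas Clock moved less, with its lowest value at 12 h (-0.49, -0.58 to -0.41).

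Nr1d1, Nr1d2 and Dbp had the opposite shape, with their lowest values at 4 h. Nr1d1 stood at 24.4, 23.9, 5.56 and 24.2 CPM over the 4 libraries in time order, and Nr1d2 at 32.1, 27.7, 10.8 and 30.7. Dbp stood at 24.1, 15.02, 4.77 and 58.0. At 4 h the log2 ratios to 0 h were -2.13 (-2.27 to -1.99) for Nr1d1, -1.57 (-1.68 to -1.47) for Nr1d2 and -2.34 (-2.49 to -2.19) for Dbp, and at 12 h they were -0.01 for Nr1d1, -0.07 for Nr1d2 and 1.27 (1.19 to 1.34) for Dbp.

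The repressors did not move as 1 group. Per1, an early-response gene as well as a clock gene, was highest at 1 h (6.30, 11.9, 4.19 and 2.48 CPM), with log2 ratios of 0.91 (0.76 to 1.07) at 1 h and -1.34 (-1.59 to -1.11) at 12 h. Per2 was highest at 4 h (6.25, 4.61, 10.0 and 5.53 CPM), and Per3 was lowest there (17.2, 14.3, 10.1 and 21.3). Ciart followed Dbp in being lowest at 4 h, at 1.69, 0.936, 0.464 and 1.83 CPM from 146, 83, 44 and 144 UMIs.

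In count, none of the 10 members was past 2-fold at 1 h in PT-like cells, where 0.867% of 13610 genes with at least 20 UMIs were 2-fold higher and 1.95% 2-fold lower. At 4 h 2 members were at least 2-fold higher, Arntl and Npas2, against 2.81% of 13676 genes, and 4 were at least 2-fold lower, Nr1d1, Nr1d2, Dbp and Ciart, against 3.34%. At 12 h Dbp was higher (background 2.51% of 13601 genes) and Per1 lower (background 3.2%). At 1, 4 and 12 h the median log2 ratio over the members was -0.16, -0.68 and -0.12, beside 0.0029, 0.034 and 0.020 for all genes tested. These values of pooled cells were shared only in part by the sexes, as follows.

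Cells were called male when they held at least 1 UMI of the Y-linked genes Ddx3y, Eif2s3y, Kdm5d or Uty and none of Xist, and female when they held Xist and no Y-linked UMI. These are named male and female cells from here on. Among PT-like cells 3079, 2872, 2968 and 2457 were male and 1405, 1486, 1855 and 1320 female at 0, 1, 4 and 12 h, of 6479, 6165, 7113 and 6198 in all. The other cells had no call and count only in the pooled values. The sexes are different animals of a library, so sex and animal cannot be told apart. Male PT-like cells were deeper (median 14139 to 16618 UMIs, against 11235 to 13138.5), and their UMIs made up most of the pooled sums (50949501 against 16978121 at 0 h). Clusters named for the straight segment, PT-S3-like, were nearly all male, with 1120 to 1901 male and 10 to 19 female cells per library. The clusters named for the earlier segments (PT-S1/S2-like) hold 1178 to 1367 male and 1310 to 1836 female cells per library. At 0 h they hold 1389 of the 1405 female PT-like cells but 1178 of the 3079 male ones. Values within them thus compare the sexes at similar cell numbers, but the segment may not be matched.

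Arntl differed between the sexes in level and in direction. In male PT-like cells it stood at 8.95, 11.5, 16.8 and 1.31 CPM at 0, 1, 4 and 12 h, and in female cells at 3.30, 3.77, 19.3 and 9.80. Both sexes had their highest value at 4 h, but the male cells were the higher ones at 0 and 1 h and the lower ones at 12 h. At 12 h the log2 ratio to 0 h was -2.78 (-3.22 to -2.36) in male and 1.57 (1.13 to 2.03) in female cells. Within PT-S1/S2-like cells these ratios were -2.56 and 1.59.

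Npas2, whose protein can take the place of CLOCK beside BMAL1, went the same way. It stood at 5.08, 6.44, 9.65 and 1.18 CPM in male and 2.36, 2.32, 8.61 and 4.76 in female cells, a log2 ratio at 12 h of -2.11 (-2.59 to -1.66) against 1.01 (0.46 to 1.60). Clock stood at 36.7, 35.2, 33.1 and 22.6 CPM in male and 35.7, 32.6, 38.1 and 36.7 in female cells. So male cells carried its lower value at 12 h (-0.70, -0.82 to -0.59), whereas for female cells the interval included 0 (0.04, -0.12 to 0.20).

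Dbp mirrored Arntl. It stood at 14.7, 7.87, 5.52 and 80.6 CPM in male and at 50.5, 29.2, 3.32 and 11.4 CPM in female PT-like cells. The female cells were the higher ones at 0 and 1 h and the male cells at 12 h, with log2 ratios to 0 h at 12 h of 2.45 (2.34 to 2.57) in male and -2.14 (-2.37 to -1.92) in female cells. The pooled ratio of 1.27 lies between the 2 sexes. In PT-S1/S2-like cells, where the sexes are about equal in number, the pooled ratio was 0.12 (0.02 to 0.23) while male cells gave 2.58 and female cells -2.24.

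The 8 pools of PT-like cells (2 sexes in 4 libraries) stood in exactly reversed order by Arntl and by Dbp. From the lowest Arntl level to the highest, the pools were male 12 h, female 0 h, female 1 h, male 0 h, female 12 h, male 1 h, male 4 h and female 4 h, and the same sequence runs from the highest Dbp level to the lowest. Of the 28 pairs of pools, 28 were thus in opposite order for Dbp, 24 for Nr1d2, 24 for Ciart and 23 for Per3, with 19 for Nr1d1 and 18 for Per2, whereas Npas2 was in the same order as Arntl in 25 and Clock in 20. Within PT-S1/S2-like cells the counts were 27 for Dbp, 24 for Nr1d2, 22 for Ciart, 23 for Per3, 21 for Nr1d1 and 14 for Per2, and in the same order 28 for Npas2 and 22 for Clock. Per1 showed neither order, with 14 of 28 pairs in each. Neighbouring pools can lie within each other's counting intervals, and the pools of a library share its preparation.

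Of the REV-ERB genes, Nr1d1 differed between the sexes mainly at 4 h and Nr1d2 in every library. Nr1d1 stood at 25.6, 24.95, 2.93 and 22.0 CPM in male and 28.3, 28.1, 12.1 and 33.2 in female cells. Their intervals overlapped at 0 h, and at 4 h the log2 ratio to 0 h was -3.12 (-3.38 to -2.88) against -1.22 (-1.43 to -1.01). Nr1d2 stood at 28.9, 23.9, 9.48 and 37.3 against 48.8, 42.2, 17.2 and 23.4, so it was lower in male cells in 3 libraries and higher at 12 h. Over all PT-like cells its 4 h log2 ratios to 0 h were close (-1.61, -1.76 to -1.46, and -1.51, -1.68 to -1.34). Within PT-S1/S2-like cells they were less alike. There Nr1d2 went from 30.6 CPM at 0 h to 7.07 at 4 h in male and from 49.2 to 17.3 in female cells.

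Over all PT-like cells Per1 was higher in female cells at 0, 1 and 4 h, but within PT-S1/S2-like cells only at 1 and 4 h. At 0 h the latter held 9.74 CPM in male and 8.29 in female cells. Over all PT-like cells Per1 stood at 6.20, 9.99, 1.92 and 2.73 CPM in male and 8.19, 19.5, 10.2 and 2.41 in female cells. At 4 h male cells were thus below their 0 h level (log2 ratio -1.69, -2.04 to -1.36), while the ratio of female cells was 0.31 (0.01 to 0.62). Per2 stood at 6.40, 4.27, 13.4 and 7.63 against 8.48, 6.95, 5.57 and 2.30, and male cells carried its 4 h peak (1.06, 0.87 to 1.26), while female cells were below 0 h then (-0.61, -0.95 to -0.26). Per3 followed Dbp, at 13.9, 10.4, 11.04 and 29.98 against 37.0, 30.2, 13.2 and 13.7. Ciart had 98, 37, 29 and 113 UMIs in male and 29, 35, 9 and 7 in female cells, or 2.83 against 0.392 CPM at 12 h.

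**Figure D2:**
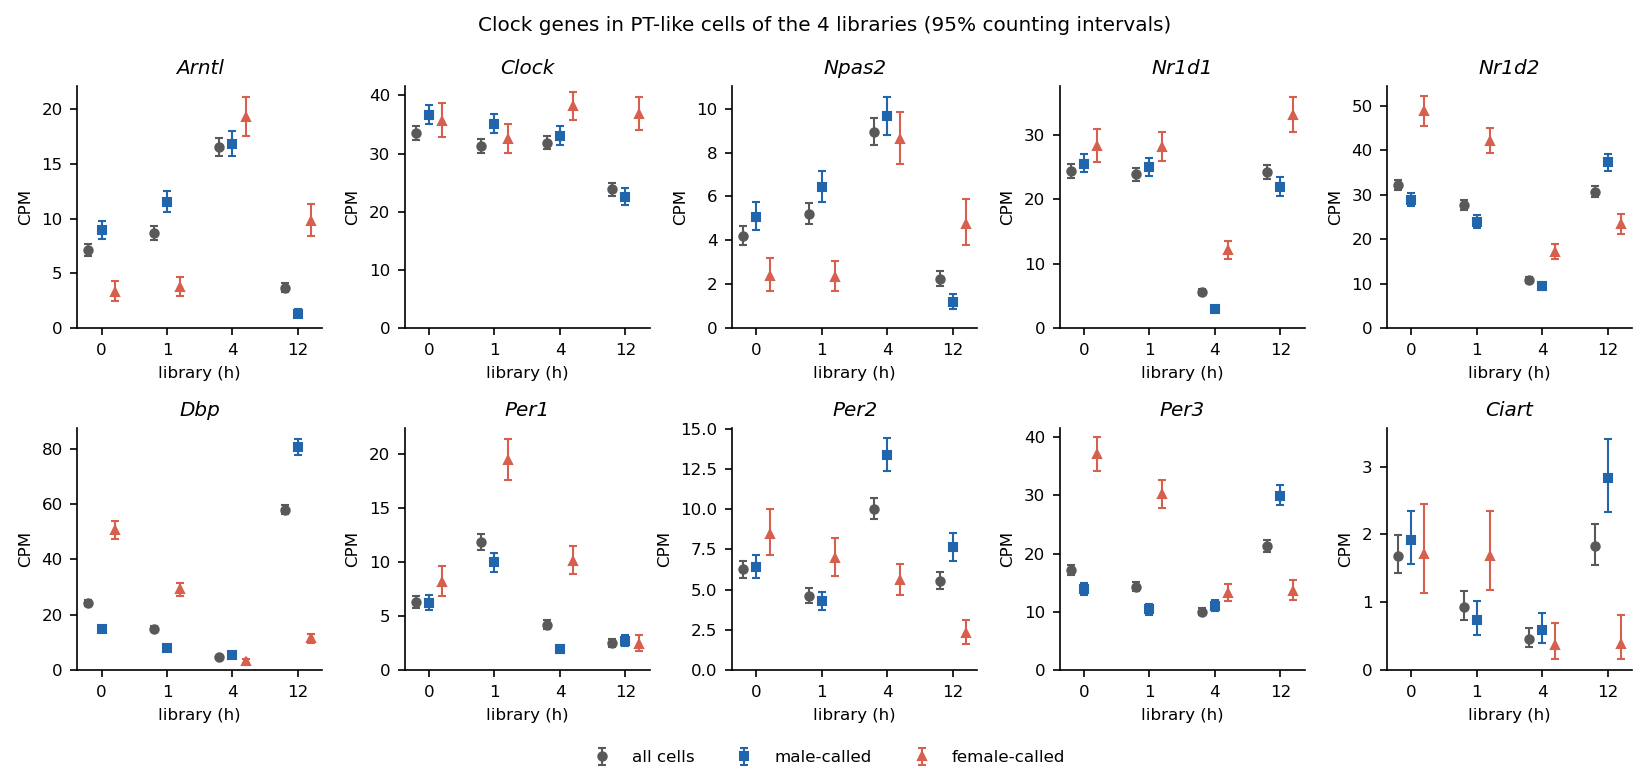
Level of each clock gene (y axis, CPM, linear from 0, a separate scale for each gene) in PT-like cells of the 4 libraries (x axis, h), for all cells (grey circles), male cells (blue squares) and female cells (red triangles); bars are 95% counting intervals. At 12 h Dbp is at 80.6 CPM in male and 11.4 in female cells, and Arntl at 1.31 and 9.80.

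Counted by sex at 1 h, none of 10 members was at least 2-fold higher and 1 lower (Ciart) in male PT-like cells (background 0.827% and 1.91%), and 1 was higher (Per1) and none lower in female cells (1.38% and 1.08%). In the next library 1 of 10 members was at least 2-fold higher and 5 lower at 4 h in male PT-like cells (background 2.68% higher and 3.84% lower), and 2 were higher and 5 lower in female cells (3.67% and 1.79%). Nr1d1, Nr1d2, Dbp and Ciart were among the lower members in both. At 12 h 2 were higher (Dbp and Per3) and 3 lower (Arntl, Npas2 and Per1) in male cells, against 2.32% and 3.49% of genes, and 2 were higher (Arntl and Npas2) and 6 lower (Nr1d2, Dbp, Per1, Per2, Per3 and Ciart) in female cells, against 3.29% and 1.13%. The comparisons with 0 h share the 0 h library. Set directly against each other within the 12 h library, male cells were at least 2-fold higher in 4 members (Dbp, Per2, Per3 and Ciart; background 3.83%) and lower in 2 (Arntl and Npas2; background 8.4%). Within the 0 h library they were higher in Arntl and Npas2 (background 7.27%) and lower in Dbp and Per3 (7.56%), the other way round. The 1 h library matched the 0 h one in these 4 genes (background 5.71% and 7.31%) with Ciart also lower, and at 4 h Per2 was higher (5.37%) and Nr1d1 and Per1 lower (8.66%).

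The same direction at 12 h was found outside the proximal tubule. Dbp stood at 18.5 CPM in male and 3.61 in female DCT/CNT-like cells, 69.5 and 21.6 in TAL-like, 75.1 and 14.5 in IC-like, and 135 and 27.1 in endothelial-like cells. In PC-like cells it had 41 UMIs in 35 male cells and 0 in 38 female cells, which is at least 14.1-fold higher against a floor of 3 UMIs. The interval of the male against female ratio lay above 0 in 6 of the 7 classes compared at 12 h, and it included 0 in T/NK-like cells (25.7 and 23.4 CPM, from 10 and 14 UMIs). At 0 h it lay above 0 in IC-like cells, below 0 in PT-like cells and included 0 in the other 2 classes compared.

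Arntl at 12 h was lower in male cells in each of the 3 classes with at least 20 UMIs. It stood at 11.4 against 23.3 CPM in DCT/CNT-like and 20.1 against 60.9 in endothelial-like cells, beside the PT-like values above. Per3 at 12 h was higher in male cells in 4 of 5 classes compared, for example 40.7 against 16.5 CPM in TAL-like cells. Nr1d1 at 4 h was lower in male cells in both classes compared, PT-like and TAL-like (1.60 against 13.7 CPM, from 2 and 21 UMIs), while at 12 h it was higher in male endothelial-like (84.5 against 18.6), PC-like (66.7 against 11.1) and IC-like cells (53.6 against 26.3) but lower in PT-like cells.

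**Figure D3:**
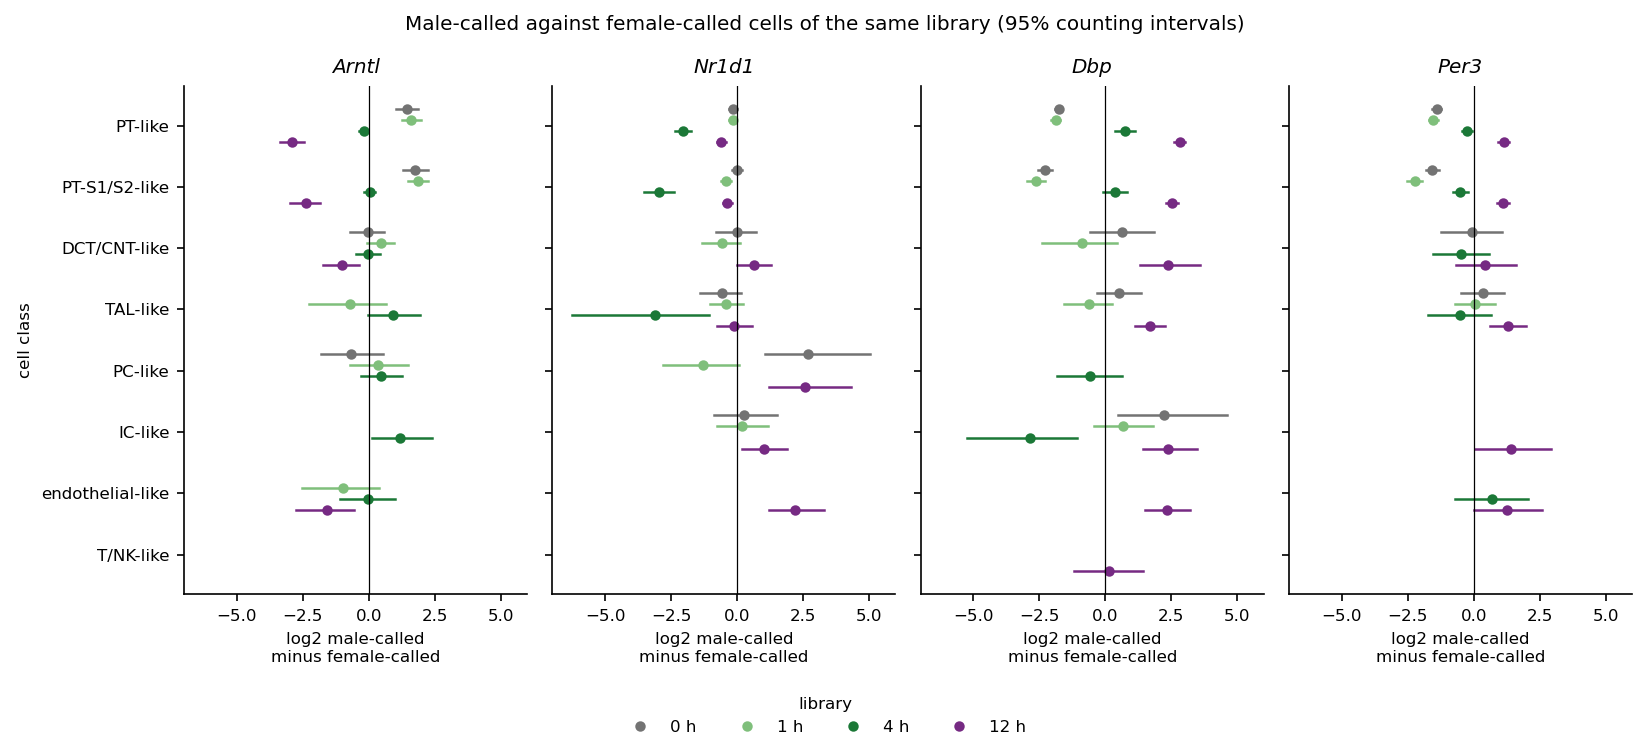
Log2 ratio of male to female cells within a library (x axis) for Arntl, Nr1d1, Dbp and Per3 over cell classes (y axis), coloured by library; points need at least 20 UMIs over the sexes, lines are 95% counting intervals, and Dbp in PC-like cells at 12 h (41 against 0 UMIs) is not drawn. The 12 h points of Dbp lie to the right of 0 except in T/NK-like cells, where the interval includes 0.

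The classes that follow are given over all cells, and their mix of the sexes differed. At 0 h there were 3079 male and 1405 female PT-like cells, 124 and 250 DCT/CNT-like and 99 and 187 TAL-like cells. DCT/CNT-like cells moved to 239 and 219 at 4 h. Likeness and contrast between classes were not separated from this mix. Over all cells of a class, DCT/CNT-like cells shared the low REV-ERB values at 4 h. Nr1d1 stood at 17.0, 14.8, 2.45 and 16.6 CPM, and Nr1d2 at 18.2, 14.9, 6.06 and 14.1, with log2 ratios at 4 h of -2.80 (-3.60 to -2.07) and -1.59 (-2.13 to -1.07). Arntl over the whole class, in contrast to PT-like cells, had no peak at 4 h (22.4, 25.5, 24.5 and 14.9 CPM), but the clusters of the class differed, as given below. Dbp was at 5.94, 4.34, 2.71 and 10.4 CPM from 21 to 67 UMIs. Per1 over the whole class stood at 11.9, 29.7, 13.02 and 5.44 CPM. Its 1 h peak was larger on the log2 scale here (1.32, 0.89 to 1.77) than the 0.91 of PT-like cells, with intervals that overlapped only between 0.89 and 1.07. Its values by cluster are given below. Per2 was at 3.37, 4.69, 8.25 and 2.49 CPM. Clock (47.3, 50.9, 38.9 and 36.8 CPM) and Per3 (6.93, 3.65, 5.16 and 5.28) stayed within 2-fold of 0 h, and Ciart had 0, 0, 1 and 0 UMIs.

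In count, 1 member was at least 2-fold higher at 1 h in DCT/CNT-like cells (Per1, background 1.27%) and none lower (1.51%). At 4 h 2 were higher (Npas2 and Per2, 3.3%) and 3 lower (Nr1d1, Nr1d2 and Dbp, 4.21%), and at 12 h none was higher (2.67%) and 1 lower (Per1, 2.42%). Of the 10 members 8, 9 and 8 had at least 20 UMIs at these times. The class holds 3 clusters, 1 led by Slc12a3 and 2 by S100g, a calcium-binding protein of the connecting tubule. The Npas2 value rested on the Slc12a3-led cluster (6 UMIs at 0 h and 30 at 4 h). The others held too few UMIs of Npas2 to give a direction (2 and 1, and 1 and 2). The Per2 value rested on the larger S100g-led cluster (5 and 42 UMIs). For Per1 the log2 ratio at 1 h was 1.47 (0.99 to 1.97) in the Slc12a3-led cluster, from 49 and 141 UMIs. In the larger S100g-led cluster it was 0.77 (-0.28 to 1.93), from 11 and 28. At 12 h the Per1 ratios of these clusters were -1.66 (-2.60 to -0.80) and -0.19 (-1.39 to 1.06). Nr1d1 was lower at 4 h in each of the 3, with 71 and 10, 13 and 8, and 2 and 1 UMIs. Arntl was highest at 4 h in the Slc12a3-led cluster (20.5, 24.6, 28.4 and 18.5 CPM), with a log2 ratio to 0 h of 0.47 (0.03 to 0.92). In the larger S100g-led cluster it was not (28.2, 27.8, 23.1 and 13.8 CPM), and the smaller one had 6, 5, 5 and 5 UMIs.

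Over all cells of each class, with the unlike mix of the sexes given above, TAL-like cells resembled PT-like cells in the members measured. Nr1d1 stood at 31.3, 33.8, 7.55 and 28.2 CPM, Dbp at 22.1, 16.9, 3.93 and 42.0, and Arntl at 7.48, 7.28, 16.0 and 4.88. Arntl thus had its highest value at 4 h and the other 2 their lowest. Nr1d2 stood at 44.5, 38.1, 17.5 and 40.1 CPM, Per3 at 23.1, 21.3, 9.66 and 25.5, Clock at 40.8, 37.8, 44.4 and 31.5, and Per1 at 12.9, 18.04, 7.55 and 9.22. Npas2 (1, 3, 8 and 3 UMIs), Per2 (5, 6, 4 and 9) and Ciart (1, 1, 0 and 2) were under 20 UMIs. At 4 h Arntl was at least 2-fold higher (background 1.5%) and Nr1d1, Nr1d2, Dbp and Per3 at least 2-fold lower (1.38%), of 7 members with at least 20 UMIs. None was past 2-fold at 1 h (1.1% of genes higher and 0.644% lower) or at 12 h (1.27% and 1.05%).

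In endothelial-like cells Dbp was low in 3 libraries and high at 12 h. It stood at 11.5, 17.4, 12.1 and 101 CPM from 9, 15, 16 and 172 UMIs, a log2 ratio of 3.13 (2.17 to 4.28) at 12 h, and the summed PT markers there were at 4.39% of their PT-like level at 0 h and 3.00% at 12 h. Dbp was the member higher at 12 h (background 2.8%), and Per1 was lower (1.85%), at 56.3, 54.4, 14.3 and 8.79 CPM. Nr1d1 stood at 33.2, 16.2, 4.52 and 60.4 CPM, and Nr1d2 at 20.5, 29.0, 7.53 and 39.3. Arntl (28.1, 30.1, 40.7 and 31.7 CPM), Clock (84.4, 93.8, 79.1 and 73.3) and Per3 (21.7, 16.2, 19.6 and 31.7) were not past 2-fold at any time. Per2 had 2, 2, 5 and 6 UMIs and Ciart 0, 1, 0 and 2. At 4 h Nr1d1, Nr1d2 and Per1 were at least 2-fold lower (2.51%) and no member was higher (2.56%), and at 1 h none was higher (2.24%) and 1 was lower, Nr1d1 (1.46%), from 26 and 14 UMIs.

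T/NK-like cells held few UMIs of these genes. Only Arntl, Clock, Dbp and, except at 4 h, Nr1d2 had at least 20 over the 2 libraries compared, and none of these was past 2-fold, with intervals as wide as -1.65 to 0.92 for Dbp at 1 h (background at 1, 4 and 12 h 2.0%, 2.29% and 2.05% of genes higher and 3.06%, 2.91% and 3.02% lower). Dbp was at 16.8, 13.4, 19.6 and 25.9 CPM from 10 to 36 UMIs, Arntl at 12.3, 20.04, 16.95 and 12.2, Clock at 26.9, 33.4, 27.4 and 19.4, and Nr1d2 at 15.7, 10.7, 6.52 and 12.2. The others were given by few UMIs per library: 1 to 7 of Nr1d1, 7 to 9 of Per1, 0 to 5 of Per2, 0 to 8 of Per3, 1 to 5 of Ciart and 0 to 1 of Npas2. At this depth changes of the size found in PT-like cells were not detectable for most members.

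**Figure D4:**
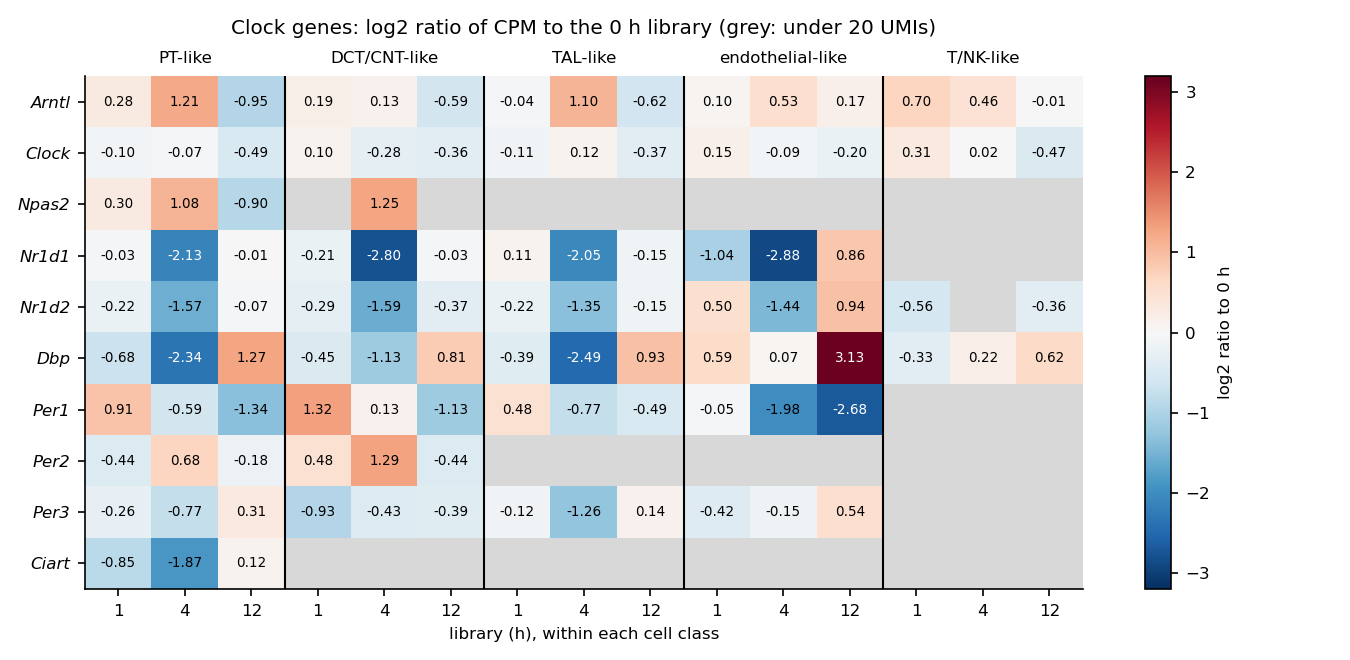
Log2 ratio of CPM to the 0 h library for each clock gene (rows) at 1, 4 and 12 h (columns) in 5 cell classes, all cells of a class together; red is higher and blue lower than at 0 h, and grey cells had under 20 UMIs. Nr1d1 and Nr1d2 are blue at 4 h in every class measured there, and Dbp is reddest at 12 h in endothelial-like cells (3.13).

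The rest of the clock was followed in 18 genes outside the 10, of which 17 were measured in PT-like cells. At 4 h Cry1, a repressor that partners the PER proteins, stood at 8.11 CPM against 1.19 at 0 h (log2 ratio 2.77, 2.47 to 3.08). Tef, a relative of Dbp, was lower at 33.0 against 87.4 CPM (-1.41). Tef was the 1 gene of the 17 at least 2-fold lower then, beside the same 3.34% of genes. At 1 h Bhlhe40, a repressor of BMAL1 targets, was the 1 gene past 2-fold, at 101 against 31.3 CPM (background 0.867% higher and 1.95% lower). At 12 h Nfil3, which opposes Dbp at D-boxes, and Bhlhe41 were lower, at 3.51 against 11.8 and 1.51 against 3.03 CPM (background 3.2%). No gene of the list was at least 2-fold higher then (background 2.51%). The median log2 ratio of the list was 0.051, 0.14 and -0.13.

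In DCT/CNT-like cells 13 of the 18 were measured. Cry1 stood at 17.7 against 3.57 CPM at 4 h, and Bhlhe40 at 186 CPM at 1 h and 73.6 at 4 h against 20.2. Nfil3 was lower at 12 h, at 2.18 against 8.52 CPM. At 1 h 1 gene of the 13 was at least 2-fold higher (background 1.27%) and 0 lower (1.51%), and at 12 h 0 were higher (2.67%) and 1 lower (2.42%).

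The sexes also differed in these genes in PT-like cells. Cry1 at 4 h was high in both, at 9.08 CPM in male and 5.41 in female cells. Nfil3 stood at 15.4, 7.16, 9.91 and 2.28 CPM in male and 3.48, 4.01, 14.0 and 6.27 in female cells, with log2 ratios to 0 h at 12 h of -2.76 (-3.09 to -2.44) and 0.85 (0.38 to 1.33). Usp2, a deubiquitinase under clock control, stood at 96.9 CPM in male and 82.5 in female cells at 0 h, against 79.0 and 23.5 in the 12 h library. Bhlhe41 was at 1.35 CPM in male and 8.13 in female cells at 0 h and at 1.68 and 1.06 at 12 h.

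Among 10 genes known as rhythmic or clock dependent in the kidney, Sgk1, a kinase that raises sodium channel activity, was lower at 12 h in PT-like cells (42.9 CPM at 0 h, 76.0, 46.4 and 8.76) and in DCT/CNT-like cells (53.3, 91.2, 27.1 and 8.39). In PT-like cells Cdkn1a, an inhibitor of the cell cycle, was higher at 4 h (15.6 against 5.37 CPM), and Aqp4, a water channel, was lower at 4 h and 12 h (1.39 and 0.992 against 3.11). Avpr2, the vasopressin receptor, was past 2-fold there at 4 h from 6 and 14 UMIs, with an interval from -0.38 to 2.75. In DCT/CNT-like cells Cdkn1a was higher at 1 and 4 h (52.8 and 74.9 against 26.1 CPM), Tsc22d3, a glucocorticoid-induced gene, lower at 1 and 12 h (11.8 and 12.0 against 27.3), and Avpr2 higher at 12 h (47.4 against 17.8). The Slc12a3-led cluster held a smaller share of the UMIs of this class at 12 h than at 0 h. The part of this shift in the 12 h values was not tested. In PT-like cells the counts of the list at 1, 4 and 12 h were 0, 2 and 0 higher (background 0.867%, 2.81% and 2.51%) and 0, 1 and 2 lower (1.95%, 3.34% and 3.2%) of 9, 10 and 9 measured. In DCT/CNT-like cells 1, 1 and 1 were higher (1.27%, 3.3% and 2.67%) and 1, 0 and 2 lower (1.51%, 4.21% and 2.42%) of 9, 8 and 8.

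Across the 5 classes and 4 libraries (20 points), with each gene's log2 CPM centred within its class, 5462 genes had enough UMIs to be set beside Arntl and Dbp. The correlation of Dbp with Arntl was -0.80, the lowest of the 5462 when genes were set beside Arntl. When genes were set beside Dbp, Arntl ranked 5456 of 5462 from the highest r. The genes most like Arntl were Hspa5 (r = 0.82), Hsp90b1, Pnrc1, Vkorc1, Creld2, Rassf1, Grk2 and Brd1 (0.74), and those most like Dbp were Mospd3 (0.85), Tprkb, Rab5c, Kars, Ankmy2, Gnas, Gpr180 and Ctso (0.69). Of the other members only Clock passed the UMI minimum in every class, with r = 0.63 to Arntl and -0.56 to Dbp. The points share libraries, depth and composition of the sexes, so these values are a description.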

How the data were processed

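Raw UMI counts per gene and barcode were deposited by the authors for 4 libraries (10x Genomics 3′ chemistry V3, per the labels' protocols). The submitters' processing notes name Cell Ranger 3.1.0, STAR, Seurat and the build mm10. Nothing had been normalised. The 10 members and all gene lists were chosen with earlier results of these data known. All 10 members were named in each class with at least 100 cells per library; of the other lists, genes past 2-fold in PT-like or DCT/CNT-like cells were named, except 1 that is not reported here; and the 8 genes most correlated with Arntl and with Dbp.

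Barcodes with under 300 genes or over 50% mitochondrial UMIs were left out. Doublets were scored in each library by the share of simulated doublets in a cell's 30 nearest neighbours (8.1%, 7.59%, 8.89% and 8.29% of cells at 0, 1, 4 and 12 h) and removed after clustering. Cells were clustered together (scanpy 1.11.5, leidenalg 0.10.2, resolution 1.5, 20 neighbours, 30 components, 2012 genes) without clock, sex-linked, mitochondrial and ribosomal genes. A class needed 3 markers on, meaning detected in 10% of the cluster's cells and reaching 0.2 of the top cluster's level; this was set after the clusters had been seen. The 16 clusters left unnamed held 361 to 575 cells per library.

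For each class in a library, summed UMIs were scaled to CPM with exact Poisson 95% intervals, and log2 ratios with exact conditional binomial 95% intervals (scipy 1.17.1). A gene was measured with at least 20 UMIs over the 2 sums compared. Depth was 139675666 to 158838728 UMIs per library, and UMIs of 1 library are no replicates. The ratios and 2-fold calls were tested on simulated counts. Alternatives changed the filters, clustering, scaling, threshold, segment, cluster and sex. The correlations used log2 of CPM with 0.5 UMIs added and genes with at least 50 UMIs in each class.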

Additional observations from a re-analysis of the deposited data

Results flagged for a closer look

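In PT-like cells the log2 ratio to 0 h went in opposite directions in male-called and female-called cells for 8 members at 12 h and 2 at 4 h. The intervals of each ratio cover counting error only, the difference was not tested because each sex is 1 pool of cells per library, and both ratios rest on the 0 h library. At 12 h the male-called minus the female-called ratio was -4.35 for Arntl (-2.78 and 1.57), -3.12 for Npas2 (-2.11 and 1.01) and -0.45 for Nr1d1 (-0.22 and 0.23). It was 4.60 for Dbp (2.45 and -2.14), 1.43 for Nr1d2 (0.37 and -1.06), 2.14 for Per2 (0.25 and -1.88), 2.54 for Per3 (1.10 and -1.44) and 2.68 for Ciart (0.56 and -2.12, the latter from 29 and 7 UMIs). The difference was below 0 for Arntl, Npas2 and Nr1d1, and above 0 for Dbp, Nr1d2, Per2, Per3 and Ciart.

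At 4 h the difference was -2.00 for Per1 (-1.69 and 0.31) and 1.67 for Per2 (1.06 and -0.61). Within PT-S1/S2-like cells the 12 h ratios of Arntl were -2.56 and 1.59, those of Dbp 2.58 and -2.24, and those of Per3 1.24 and -1.45.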

How the results depend on the processing

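No paired analysis was possible because each group is 1 library, so the shared replicate number is only a name. Of 168 log2 ratios to 0 h, all 168 moved by less than their counting interval when doublet calls were kept, when at least 1000 UMIs were required, at clustering resolution 0.8 and with median-of-ratios scaling. The number was 167 with mitochondrial UMIs left out of the total, 156 with cells weighted equally and 149 under a mitochondrial limit of 25%. It was 63 of 107 in male-called cells alone, 64 of 108 in female-called cells alone, 60 of 90 in PT-S1/S2-like and 9 of 30 in PT-S3-like cells. CPM levels depend more on the total: of 280, 161 moved past their interval without mitochondrial UMIs and 99 under the 25% limit. Single clusters of DCT/CNT-like cells and the PT-S1/S2-like cells of each sex were chosen after seeing the data.

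Of all ratios, whatever their size, 36 of 108 had another sign in female-called cells alone and 14 of 107 in male-called cells alone, among them Arntl (1.57), Npas2 (1.01) and Per3 (-1.44) at 12 h and Per1 (0.31) and Per2 (-0.61) at 4 h in female-called PT-like cells. Of ratios past 2-fold, 7 turned direction: Dbp in PT-like cells at 12 h in female-called cells (-2.15), Npas2 in DCT/CNT-like cells at 4 h under the 25% limit (-0.19) and in clusters 20 (-2.04) and 25 (-0.11), Nr1d2 there in cluster 25 (1.21, from 1 and 5 UMIs), Per1 there at 12 h in male-called cells (0.098), and Nr1d1 in endothelial-like cells at 1 h in male-called cells (0.36). The Npas2 ratios of clusters 20 and 25 rest on 2 and 1 and on 1 and 2 UMIs, too few to give a direction.

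Counts of members past 2-fold moved by more than 1.5 times as follows (the 4 lower at 4 h in PT-like cells became 5 in either sex and either segment, within that limit), and where the alternative uses fewer cells or another threshold that is part of its construction; otherwise the cause was not tested. In PT-like cells at 1 h the higher count of 0 became 1 in female-called cells and 1 at 1.5-fold, and the lower count of 0 became 1 in male-called cells, 1 in PT-S3-like cells and 2 at 1.5-fold. At 4 h the higher count of 2 became 1 without mitochondrial UMIs, 1 in male-called and 0 in PT-S3-like cells. At 12 h the higher count of 1 became 2 in either sex alone and 0 in PT-S1/S2-like cells, and the lower count of 1 became 3 in male-called, 6 in female-called and 3 in PT-S3-like cells and 3 at 1.5-fold.

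For DCT/CNT-like cells, the 1 h higher count of 1 became 0 in clusters 20 and 25, and the lower count of 0 became 1 in male-called cells, in cluster 14 and at 1.5-fold. At 4 h the higher count of 2 became 0 under the 25% limit, in female-called cells, in cluster 25 and with at least 100 UMIs, and 1 with cells weighted equally and in clusters 14 and 20, and the lower count of 3 became 0 in cluster 25. At 12 h the higher count of 0 became 1 under the 25% limit, with cells weighted equally, in male-called cells, in cluster 20 and at 1.5-fold, and the lower count of 1 became 2 with cells weighted equally and at 1.5-fold, and 0 in male-called cells, in cluster 25 and with at least 100 UMIs.

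In male-called PT-like cells the lower count of 1 at 1 h became 2 under the 25% limit, with cells weighted equally and in PT-S1/S2-like cells, and the higher count of 1 at 4 h became 0 without mitochondrial UMIs and 2 in PT-S1/S2-like cells. In female-called cells the higher count of 2 at 12 h became 1 without mitochondrial UMIs and 1 with median-of-ratios scaling. Of the 8 genes most like Arntl and Dbp, 6 and 3 were shared with at least 100 UMIs and 2 and 4 by Spearman's rho. Over the bases before the start alone the motif shares were 6.02%, 3.07% and 0.493%. Outside PT-like cells low counts limit most members.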

Other observations

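Neutrophil-like cells were a special case among the classes. Their Per1 level was 121, 137, 33.9 and 63.8 CPM at 0, 1, 4 and 12 h, from 76, 81, 5 and 6 UMIs, and their number was 352, 326, 79 and 57 cells. Over the same libraries Arntl had 1 UMI, Npas2 and Ciart 0, Clock 6 and Nr1d1 1. Per2 had 2, 7, 2 and 3 UMIs. So Per1 was measured there with almost none of the activators. Monocyte-like cells held Per1 too (12, 13, 2 and 4 UMIs), together with Clock (12, 11, 3 and 7).

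PC-like cells were the class with the highest Per2 level in 3 of the 4 libraries, at 34.3, 24.8, 21.9 and 6.05 CPM from 33, 17, 44 and 6 UMIs in 69, 57, 118 and 83 cells, and the exception was 12 h, when neutrophil-like cells held 3 UMIs. The log2 ratio to 0 h at 12 h was -2.50 (-4.05 to -1.23) in PC-like cells, against -0.18 over all PT-like cells. The PT-like value combines unlike sexes, with 0.253 for the male pool and -1.885 for the female pool. The female value lies within the PC-like interval, so a lower Per2 level at 12 h was not confined to PC-like cells. The Nr1d1 level of PC-like cells was 50.9, 36.5, 3.99 and 37.3 CPM. Their ratio at 4 h (-3.67, -4.96 to -2.58, from 49 and 8 UMIs) was the lowest among the 6 classes with at least 20 UMIs of it over the 2 libraries. Its interval overlapped that of DCT/CNT-like cells, so this rank was not resolved.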
